A study of Mus musculus with 6 samples.

Results

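The 38 genes described here encode the coats, GTPases and cargo receptors of the vesicles that move proteins between the endoplasmic reticulum (ER) and the Golgi apparatus, and they were taken by symbol from a table of 18253 gene symbols in liver. All 38 were listed in all 6 libraries, and all 38 were at 1 FPKM or more in every one (FPKM is fragments scaled to gene length and to the library total), so none was left out by a filter on low values. Values ran from 2.05 to 168.53 FPKM. The genes were picked for their function with the results of the comparison below already known, so the calls describe these genes and give no independent support for a direction.

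COPII is the coat that forms at ER exit sites. The exchange factor Sec12 (gene Preb) loads the small GTPase Sar1 with GTP, Sar1 recruits the inner coat of Sec23 and Sec24, and Sec24 binds the cargo before Sec13 and Sec31 form the outer cage. COPI is the coat of vesicles that return proteins and receptors from the Golgi to the ER, and it is recruited as a whole coatomer by Arf GTPases. Hepatocytes secrete most plasma proteins and lipoproteins, all of which pass through this route.

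The RNA was from C57BL/6 mouse liver, with an age of postnatal day 21 on the labels. In 3 libraries the mice had been given ANIT (alpha-naphthylisothiocyanate), a toxicant of bile duct epithelium that blocks bile flow, and in 3 they had been given ANIT plus celastrol, a plant triterpenoid. Treatment lasted 5 days, every group carried ANIT, and no untreated liver was analysed here, so the values show how ANIT plus celastrol (called celastrol below) differed from ANIT. Whether libraries are separate animals is not on the labels, so p-values measure only the spread between these samples.

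An estimate from the spacing of low values gave 18840000 to 19740000 reads per library. The summed FPKM was 540054 ± 6809 with ANIT and 589793 ± 9923 with celastrol (SD, n = 3 each, exact permutation p = 0.1, two-sided, the smallest that 3 against 3 allow). Most genes were lower with celastrol on the deposited scale, with a median log2 fold change of -0.17 over 10593 genes tested, which median-ratio scaling moved to -0.02. Hepatocyte markers were abundant in both groups, and the 5 listed summed to 41843 to 54124 FPKM with ANIT and 18719 to 26378 FPKM with celastrol. Alb, the gene of serum albumin, is one of them and fell by 78.5%. It measured 29351 to 38656 FPKM with ANIT and 5341 to 10051 FPKM with celastrol, so the lower sum came from Alb. The median log2 fold change of the 5 was -0.14, and 0.04 after median-ratio scaling. It was below 0 in 4 of the 5, and in 2 after median-ratio scaling. Of those 5 genes 1 was called lower and 1 higher. Neutrophil markers were higher with celastrol. Of the 5 listed, the 3 that could be tested all passed, and the summed level of the 5 was 20.4 to 41.6 FPKM with ANIT and 52.8 to 78.6 FPKM with celastrol, with Mpo not listed in ANIT replicate 2. Summed markers of Kupffer cells, endothelium, stellate cells and cholangiocytes overlapped between groups. Of the 4 endothelial markers 1 was called higher (2 after median-ratio scaling, median log2 fold change 0.70 without it), and of the 3 tested cholangiocyte markers 1 was called lower (median -0.48). None of the 5 Kupffer cell and 3 tested stellate cell markers passed. The 4 markers of B and plasma cells summed to 0.49 to 0.65 FPKM with ANIT and 0.72 to 1.05 FPKM with celastrol, and none could be tested. The 3 markers of pancreatic acinar cells summed to 4.37 to 5.18 FPKM with ANIT and 5.3 to 7.84 FPKM with celastrol. Almost all of that sum was Cela1, which did not pass (log2 fold change 0.38) but was called higher after median-ratio scaling (0.53), while Cpa1 and Pnlip reached at most 0.03 FPKM. The part of cell composition in the results below was not tested, and in whole liver fewer cells of a type and less RNA per cell cannot be told apart.

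The promoters of these genes are shown first, because many carry the letters bound by transcription factors of the unfolded protein response, which raises ER capacity. RefSeq windows (build GRCm38.p6) of 250 bases before to 50 bases after the start matched 35 of the 38 genes, with 41 windows. The letters GCCACGT, the core bound by XBP1, stood on either strand in 15 of the 41 windows (36.6%), against 2.58% of all 32851 windows in the table and 3.86% of the 10390 windows of genes tested. The related UPRE letters TGACGTGG stood in 7 windows (17.1%), against 0.676% of all windows and 0.818% of those of tested genes. Both motifs share the letters ACGTGG, and 4 of the 17 sites found held both. The median base composition of the member windows was 63.0% G and C, close to the 60.7% of tested genes. The longer ERSE motif (CCAAT and CCACG with 9 free bases between them) and ERSE-II (ATTGG and CCACG with 1 free base between them) matched no member window, and 0.119% and 0.0365% of all windows. The CRE letters TGACGTCA matched 1 member window, that of Cope (2.4%), against 1.79% of all windows. The sites below are all those with the full UPRE and, as examples, 4 of those with the XBP1 core alone, each as 30 bases turned so that the motif reads ACGTGG, with the matched letters in capitals.
Sec24d: cccgggcgccTGACGTGGCactagcaaccc
Sec16b: tctgtgtggcTGACGTGGCacggcagtttg
Sec23a: tcctccccttTGACGTGGCagaggcggcac
Arf1: cggcaggcgcTGACGTGGCtgccgtcagcg
Copb1: agtccttggcTGACGTGGaagggggcgggg
Copb2: gccaacccacTGACGTGGaacttccgggaa
Sec24c: tgcctaaggccgACGTGGCagaaggagtgg
Sec31a: cgctccgctccaACGTGGCagccgcagccc
Sar1a: aagcggggtaagACGTGGCagcgtctgtca
Tmed9: ctccgctgggctACGTGGCtcggcagtctg

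The Sec24d site lies at chr3:123267460-123267489, the Sec16b site at chr1:157506742-157506771, the Copb1 site at chr7:114254691-114254720, the Sec24c site at chr14:20674234-20674263, the Sec31a site at chr5:100416204-100416233 and the Tmed9 site at chr13:55593119-55593148, all read on the plus strand. The Sec23a site lies at chr12:59011992-59012021, the Arf1 site at chr11:59228227-59228256, the Copb2 site at chr9:98563712-98563741 and the Sar1a site at chr10:61680116-61680145, all read on the minus strand. The motif starts 26 bases before the annotated start in Sec24d (position -26), at -44 in Sec16b, at -28 in Copb1 and at -7 in Copb2, so most of these matches sit close to the start. In Sec23a it starts at position 7 after the start, in Sec31a at position 13, and the Arf1 site lies between its annotated starts, at -84 of one and 22 of the other. A match is a description of letters and not a measured site.

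**Figure D1:**
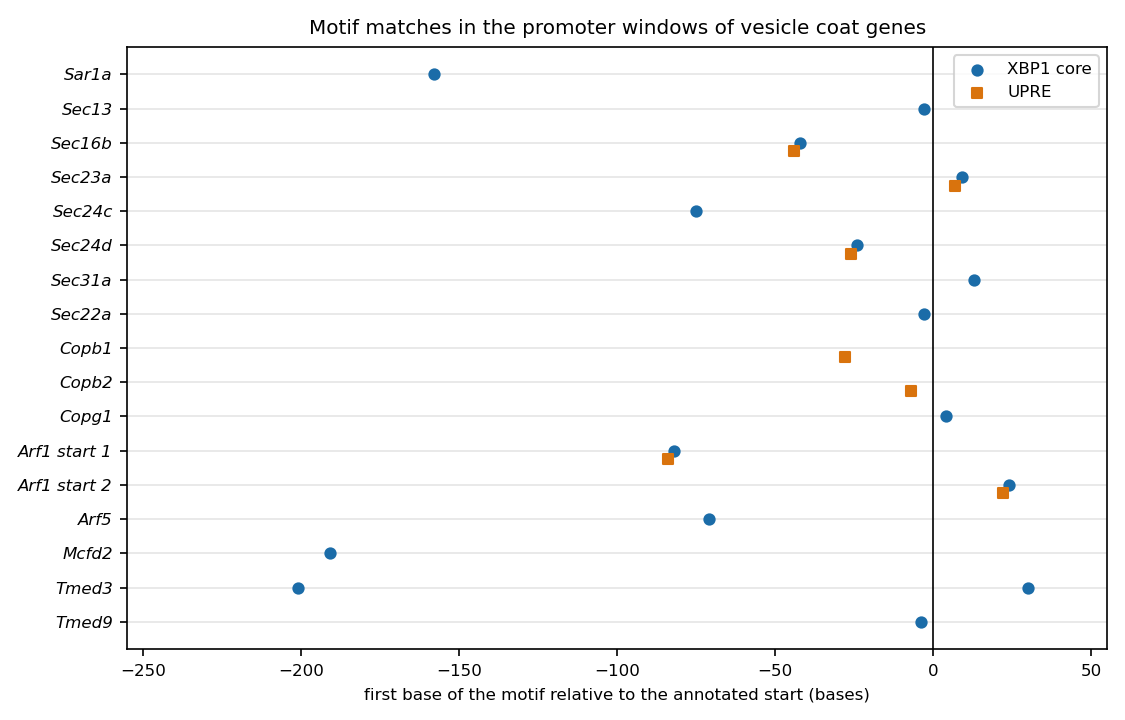
Position of the first base of each XBP1 core (circles) and UPRE (squares) match, in bases from the annotated start (vertical line), in the promoter windows of the 16 genes with a match, grouped by role from COPII at the top to cargo receptors at the bottom. Most matches lie within 100 bases of the start, and those of Sar1a, Mcfd2 and 1 of Tmed3 lie farther upstream; the Arf1 rows are 1 site seen from 2 annotated starts.

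The comparison asks which of these transcripts differ when celastrol is added to ANIT. In the fit over all genes (limma on log2(FPKM + 1), Benjamini-Hochberg adjusted p under 0.05), 22 of the 38 members were called lower with celastrol and none higher, where 20.6% of all tested genes were called lower and 4.41% higher. At an unadjusted p under 0.05, 27 members were lower and 0 higher. The median log2 fold change of the members was -0.46, against -0.17 for all genes tested, and 33 of the 38 lay below that all-gene median. In 32 members every celastrol library lay below every ANIT library, and 36.6% of all tested genes did the same. The changes were modest, since the celastrol mean was more than 20% below the ANIT mean in 24 members and more than 30% below in 15. All genes were not counted at the unadjusted threshold or at these percentages, so those member counts have no share beside them. The log2 fold change was below 0 in 37 of the 38 members and in 7640 of the 10593 genes tested. Since the list was chosen with the results of this comparison known, nothing is read from these shares.

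The counts depend on how libraries are scaled. After median-ratio scaling 1 member, Preb, was called lower and 0 higher, where 11.0% of all genes were called lower and 7.57% higher. The members' median became -0.28 beside the all-gene median of -0.02. At an unadjusted p under 0.05, 14 members were then lower and 1 higher, a threshold at which all genes were not counted. Leaving out ANIT replicate 1, 2 or 3 took the 22 calls to 6, 5 or 11. Leaving out celastrol replicate 1, 2 or 3 took them to 8, 25 or 16. Calls over all genes, in either direction, also went from 2652 to 1485, 1166 or 1744 without ANIT replicate 1, 2 or 3. They were 1117, 3810 or 1677 without celastrol replicate 1, 2 or 3. Member calls that held whichever library was left out were those of 5 genes, Preb, Sec23b, Sec22b, Arcn1 and Arf4.

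**Figure D2:**
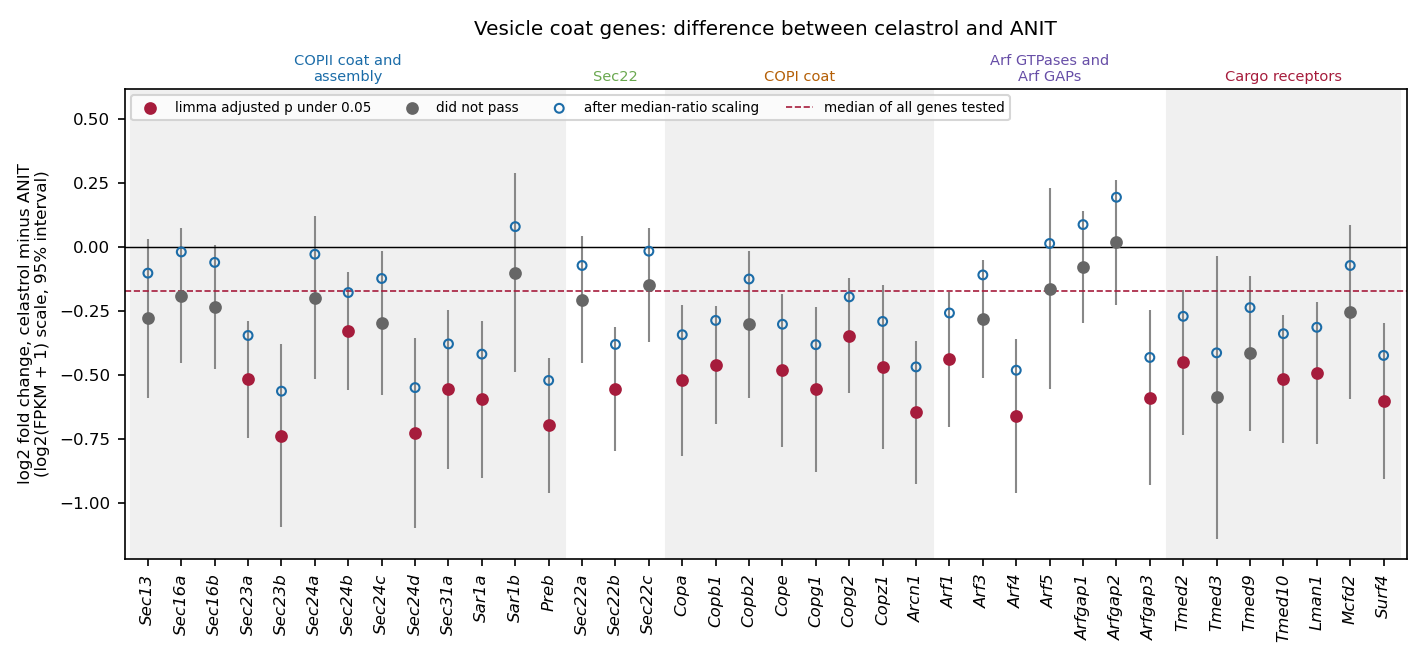
Log2 fold change of celastrol minus ANIT on the log2(FPKM + 1) scale for each member, ordered by role, as filled points with 95% intervals from limma (3 libraries a group). Dark red points passed, grey points did not, open circles give the same gene after median-ratio scaling and the dashed line is the median of all genes tested, -0.17. Of the members, 33 lie below the dashed line, and Arfgap2 is the 1 filled point above 0.

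Of the 13 COPII coat and assembly genes 7 were called lower and none higher, with a median log2 fold change of -0.33. Over all tested genes 20.6% were called lower, with a median of -0.17. Preb, the Sar1 exchange factor that starts coat assembly (chromosome 5, positions 30950853 to 30960361 in GENCODE release M21), measured 34.53, 29.48 and 29.14 FPKM in the ANIT libraries, against 20.13, 18.21 and 17.89 FPKM after celastrol. The groups were well apart, and Preb fell by 39.6% (log2 fold change -0.70, SE 0.11, adjusted p = 0.0061 in limma). It was the member that also passed after median-ratio scaling (log2 fold change -0.52, adjusted p = 0.023 in limma). Its promoter window held none of the motifs searched.

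Sec23a and Sec23b, alternative inner coat subunits that stimulate GTP hydrolysis by Sar1, were present at similar levels and both fell. Sec23a measured 24.19, 23.89 and 22.19 FPKM in the ANIT libraries, against 15.34, 15.86 and 16.96 FPKM after celastrol (log2 fold change -0.52, SE 0.10, adjusted p = 0.0098 in limma). Sec23b measured 26.56, 23.46 and 25.61 FPKM in the ANIT libraries, against 15.4, 11.62 and 17.7 FPKM after celastrol (log2 fold change -0.74, SE 0.16, adjusted p = 0.014 in limma), the lowest of the 38. The Sec23b share of the Sec23 total overlapped between groups, at 49.5 to 53.6% with ANIT and 42.3 to 51.1% with celastrol. Celastrol replicate 2 had both the lowest Sec23b value and the lowest share.

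The Sec24 genes, whose products choose cargo, did not move by the same amount. Sec24d measured 37.94, 34.5 and 36.39 FPKM in the ANIT libraries, against 23.56, 16.73 and 25.23 FPKM after celastrol (log2 fold change -0.73, SE 0.16, adjusted p = 0.017 in limma). Sec24b, the least abundant at 4.85 to 5.93 FPKM with ANIT, had one of -0.33 (SE 0.10, adjusted p = 0.048 in limma), a call that was lost in 5 of the 6 fits without 1 library. Sec24c had one of -0.30 (adjusted p = 0.11 in limma) with no overlap between groups, and Sec24a one of -0.20 (95% interval -0.52 to 0.12, adjusted p = 0.32 in limma) with overlap. Sec24d was the main Sec24 transcript with ANIT, at 40.3 to 45.5% of the Sec24 total, and took 29.9 to 37.8% with celastrol, where its share was below every ANIT library. With celastrol Sec24c held 34.5 to 38.9%, and in replicates 1 and 2 it exceeded Sec24d. These shares come from the same comparison and are given as values with no test.

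The Sar1 genes also differed from each other in size of change. Sar1a measured 50.68, 40.88 and 37.93 FPKM in the ANIT libraries, against 28.41, 27.69 and 27.94 FPKM after celastrol (log2 fold change -0.60, SE 0.13, adjusted p = 0.017 in limma). Sar1b, the form in which human mutations cause chylomicron retention disease, measured 101.51, 111.99 and 88.05 FPKM in the ANIT libraries, against 82.75, 113.96 and 86.03 FPKM after celastrol. Its groups overlapped, and its log2 fold change was -0.10 (95% interval -0.49 to 0.29, adjusted p = 0.69 in limma), turning to 0.08 after median-ratio scaling. Sar1b made up 66.7 to 73.3% of the Sar1 total with ANIT and 74.4 to 80.5% with celastrol. Sar1b and Sec24a are neighbours on chromosome 11, on opposite strands and pointing away from each other, and their outermost starts in GENCODE lie 53 bases apart (51763687 and 51763634), although the RefSeq table places the Sec24a start elsewhere. Both were among the 3 COPII genes whose groups overlapped, and the other was Sec16a.

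Of the outer cage, Sec31a fell from 44.12 ± 2.57 to 29.85 ± 4.26 FPKM (SD, n = 3 in either group) (log2 fold change -0.56, SE 0.13, adjusted p = 0.022 in limma). Its partner Sec13, which is also a subunit of the nuclear pore, measured 50.25, 41.39 and 41.85 FPKM in the ANIT libraries, against 39.1, 32.17 and 38.16 FPKM after celastrol and did not pass (log2 fold change -0.28, adjusted p = 0.16 in limma). The ER exit site scaffolds did not pass either, with a log2 fold change of -0.19 for Sec16a (adjusted p = 0.25 in limma) and -0.24 for Sec16b (adjusted p = 0.13 in limma). Sec16b was the more abundant form in all 6 libraries, with 62.2 to 65.4% of the Sec16 total.

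**Figure D3:**
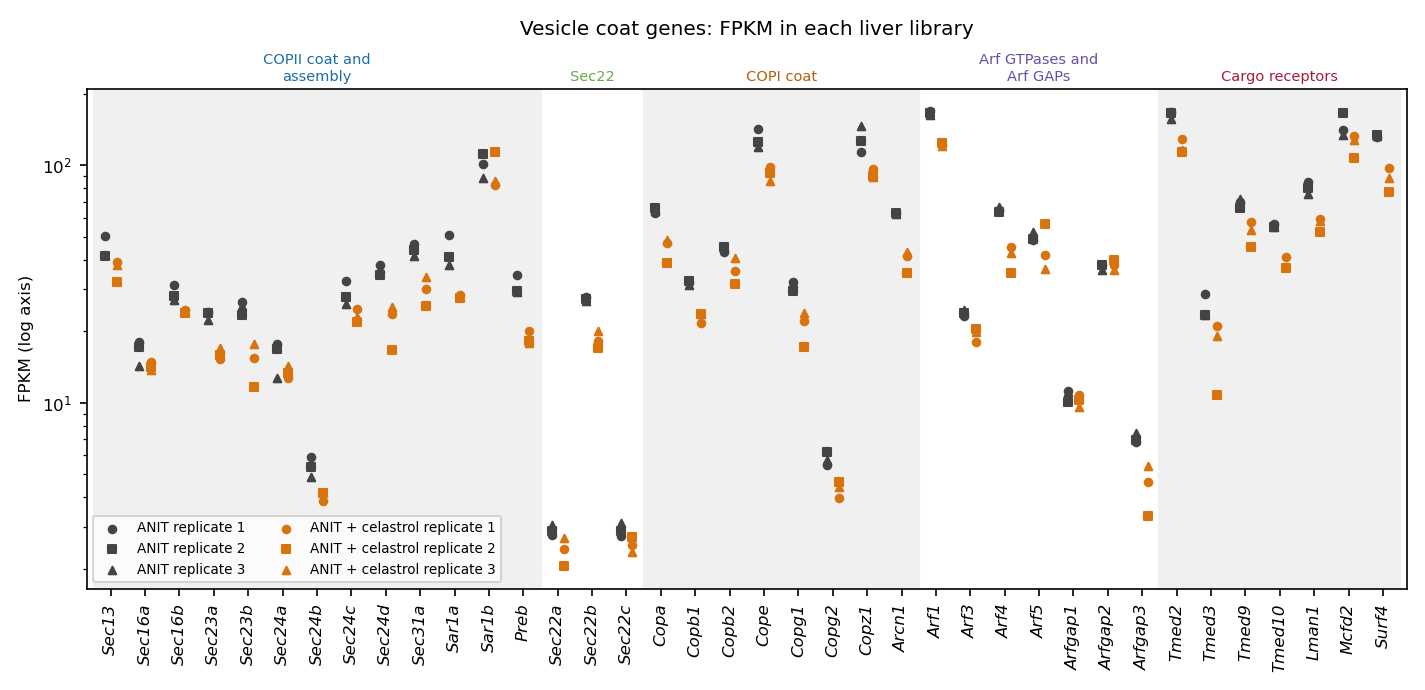
FPKM (log axis) of each member in each library, ordered by role, with ANIT in grey and ANIT plus celastrol in orange and a marker shape for each replicate number. In 32 genes all 3 celastrol points lie below all 3 ANIT points; Sec16a, Sec24a, Sar1b, Arf5, Arfgap1 and Arfgap2 are the 6 genes whose groups overlap.

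Of the Sec22 genes, Sec22b encodes the SNARE that drives fusion of transport vesicles between ER and Golgi, and the products of Sec22a and Sec22c are relatives that lack the SNARE helix. Sec22b measured 27.98, 27.39 and 26.89 FPKM in the ANIT libraries, against 18.13, 16.96 and 20.07 FPKM after celastrol (log2 fold change -0.56, SE 0.10, adjusted p = 0.0096 in limma). Sec22a measured 2.76, 2.89 and 3.06 FPKM in the ANIT libraries, against 2.43, 2.05 and 2.7 FPKM after celastrol (log2 fold change -0.21, adjusted p = 0.19 in limma). Sec22c measured 2.75, 2.89 and 3.1 FPKM in the ANIT libraries, against 2.51, 2.73 and 2.36 FPKM after celastrol (log2 fold change -0.15, adjusted p = 0.29 in limma). The groups did not overlap in any of the Sec22 genes, but 1 of 3 passed. Over all tested genes 36.6% were lower with celastrol without overlap, and 20.6% were called lower. Sec22b remained the main form, at 81.4 to 83.5% of the Sec22 total with ANIT and 78.0 to 79.9% with celastrol.

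In the COPI coat all subunit genes had lower means with celastrol. Of its 8 subunit genes 7 were called lower and none higher, and the groups did not overlap in any of the 8. Over all tested genes 20.6% were called lower, and 36.6% were lower with celastrol without overlap. Log2 fold changes of the 8 ran from -0.65 to -0.30 with a median of -0.48, against -0.17 for all genes tested. None of the 8 passed after median-ratio scaling, where the median was -0.30. Arcn1, the delta subunit, measured 62.88, 63.15 and 62.5 FPKM in the ANIT libraries, against 41.5, 35.24 and 42.96 FPKM after celastrol (log2 fold change -0.65, SE 0.12, adjusted p = 0.0093 in limma). Copb1, the beta subunit, measured 32.33, 32.6 and 31.19 FPKM in the ANIT libraries, against 21.65, 23.7 and 23.65 FPKM after celastrol (log2 fold change -0.46, SE 0.10, adjusted p = 0.015 in limma). Copa, the alpha subunit that with beta prime binds dilysine signals of returning cargo, measured 63.11, 65.96 and 64.31 FPKM in the ANIT libraries, against 47.18, 38.79 and 48.45 FPKM after celastrol (log2 fold change -0.52, SE 0.13, adjusted p = 0.023 in limma). In each of these genes the ANIT libraries lay within a few FPKM of each other and the celastrol libraries clearly below.

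Cope, the epsilon subunit, fell from 128.9 ± 11.5 to 91.9 ± 6.17 FPKM (SD, n = 3 each, adjusted p = 0.032 in limma), and Copz1, the zeta subunit, from 128.6 ± 16.9 to 92.1 ± 4.0 FPKM (SD, n = 3 each, adjusted p = 0.042 in limma). Both were the most abundant subunits per kilobase in each group, although coatomer holds its subunits in equal number and the lengths used for scaling are unknown. Copg1 and Copg2, alternative gamma subunits, had log2 fold changes of -0.56 (adjusted p = 0.025 in limma) and -0.35 (adjusted p = 0.036 in limma). The calls of Cope, Copz1 and Copg2 were lost in 5 of the 6 fits without 1 library. Those of Copa and Copg1 were lost in 4 and that of Copb1 in 3. Copg1 was the main form, with 78.8 to 85.5% of the Copg total over the 6 libraries. Copb2, the beta prime subunit, was the member that did not pass, at 43.04, 45.16 and 45.43 FPKM in the ANIT libraries, against 36.02, 31.74 and 40.54 FPKM after celastrol (log2 fold change -0.30, adjusted p = 0.11 in limma).

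Among Arf GTPases and Arf GAPs, which switch the COPI coat on and off, log2 fold changes ran from -0.66 to 0.02. Of 7 genes 3 were called lower and none higher, with a median log2 fold change of -0.28. Over all tested genes 20.6% were called lower, with a median of -0.17. Arf4, which acts beside Arf1 in the early secretory pathway, measured 64.86, 63.48 and 67.0 FPKM in the ANIT libraries, against 45.28, 35.23 and 42.61 FPKM after celastrol (log2 fold change -0.66, SE 0.13, adjusted p = 0.011 in limma). Arf1, which had the highest ANIT mean of the 38 members, measured 168.53, 165.58 and 163.11 FPKM in the ANIT libraries, against 122.19, 123.83 and 120.14 FPKM after celastrol (log2 fold change -0.44, SE 0.11, adjusted p = 0.029 in limma). Although each Arf1 group was tight, the call was lost in 5 of the 6 fits without 1 library (adjusted p from 0.014 to 0.11 in limma). Arf3 did not pass, with a log2 fold change of -0.28 (adjusted p = 0.073 in limma). Arf5 measured 48.32, 48.82 and 52.08 FPKM in the ANIT libraries, against 41.83, 56.82 and 36.5 FPKM after celastrol. Its celastrol libraries lay on both sides of the ANIT libraries (log2 fold change -0.16, 95% interval -0.56 to 0.23, adjusted p = 0.51 in limma), and the sign turned to 0.01 after median-ratio scaling.

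The Arf GAPs trigger GTP hydrolysis on Arf1. Arfgap3 measured 6.84, 6.97 and 7.47 FPKM in the ANIT libraries, against 4.61, 3.33 and 5.4 FPKM after celastrol (log2 fold change -0.59, SE 0.15, adjusted p = 0.025 in limma). Arfgap2 measured 38.15, 38.12 and 36.33 FPKM in the ANIT libraries, against 38.18, 39.85 and 36.09 FPKM after celastrol. Its log2 fold change of 0.02 (95% interval -0.23 to 0.26, adjusted p = 0.91 in limma) was the highest of the 38 members. It was 0.195 after median-ratio scaling (adjusted p = 0.14 in limma) and -0.11 when each library was rescaled to TPM. Arfgap1 overlapped between groups, with a log2 fold change of -0.08 (95% interval -0.30 to 0.14, adjusted p = 0.57 in limma) that became 0.09 after median-ratio scaling. The Arfgap3 share of the Arfgap total was 12.2 to 13.6% with ANIT and 6.23 to 10.6% with celastrol, and that of Arfgap2 was 66.1 to 69.1% and 70.7 to 74.5%.

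**Figure D4:**
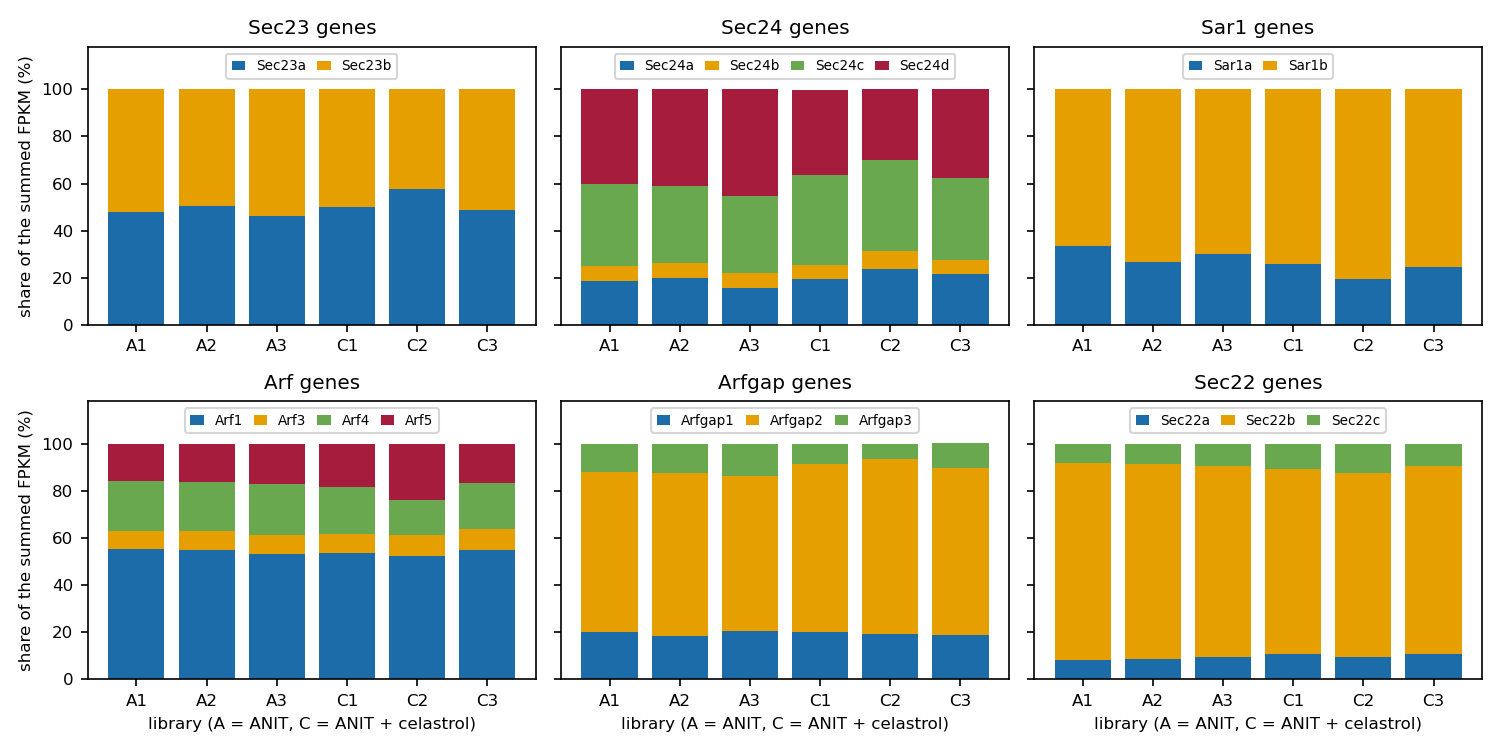
Share of each gene in the summed FPKM of its family (percent, bars stacked to 100), in the 3 ANIT (A1 to A3) and 3 ANIT plus celastrol (C1 to C3) libraries. The Sec24d, Sar1a, Arf4, Arfgap3 and Sec22b shares are lower in every celastrol library than in any ANIT library, whereas the Sec23 shares overlap.

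Of the 7 cargo receptor genes 4 were called lower and none higher, and the groups did not overlap in any of the 7. Over all tested genes 20.6% were called lower, and 36.6% were lower with celastrol without overlap. The median log2 fold change of the 7 was -0.49, against -0.17 for all genes tested. None of the 7 passed after median-ratio scaling. Tmed10, a p24 protein that cycles with COPI and COPII vesicles, measured 56.52, 54.98 and 54.94 FPKM in the ANIT libraries, against 41.09, 37.02 and 37.43 FPKM after celastrol (log2 fold change -0.52, SE 0.11, adjusted p = 0.014 in limma). Surf4, a receptor that exports lipoproteins in mouse liver, measured 131.75, 133.81 and 132.42 FPKM in the ANIT libraries, against 97.3, 76.77 and 87.95 FPKM after celastrol (log2 fold change -0.60, SE 0.13, adjusted p = 0.016 in limma). Lman1, the lectin ERGIC-53 that carries coagulation factors V and VIII (chromosome 18, positions 65980738 to 66022580), measured 84.7, 80.23 and 75.38 FPKM in the ANIT libraries, against 59.26, 52.25 and 58.47 FPKM after celastrol (log2 fold change -0.49, SE 0.12, adjusted p = 0.023 in limma). In all of these genes celastrol replicate 2 was the lowest library.

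Mcfd2, the calcium-binding partner of Lman1, measured 140.17, 165.35 and 133.78 FPKM in the ANIT libraries, against 132.48, 107.61 and 128.14 FPKM after celastrol. The gap between its groups was small, and it did not pass (log2 fold change -0.25, 95% interval -0.59 to 0.09, adjusted p = 0.24 in limma). The p24 gene Tmed2 fell from 163.6 ± 6.27 to 119.5 ± 8.35 FPKM (SD, n = 3 each, adjusted p = 0.033 in limma). Its call was lost in 5 of the 6 fits without 1 library. Tmed9 had a log2 fold change of -0.42 and just missed the threshold (adjusted p = 0.052 in limma). Tmed3 had the wide spread of 20.97, 10.82 and 19.05 FPKM with celastrol against 28.81, 23.4 and 23.31 FPKM with ANIT, and its log2 fold change of -0.59 did not pass (95% interval -1.14 to -0.04, adjusted p = 0.11 in limma).

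Within the celastrol group the libraries were not alike. Celastrol replicate 2 was the lowest of its group in 22 of the 38 members and in all 7 cargo receptors, whereas it was the lowest in 19.5% of all tested genes. Its median difference from the ANIT mean was -0.49 for the members and -0.07 for all tested genes, against -0.40 and -0.21 in replicate 1 and -0.38 and -0.24 in replicate 3. The 10 most abundant genes took 20.7% of its summed FPKM, and 33.2% and 31.5% in replicates 1 and 3. In the ANIT libraries that share was 21.9%, 20.3% and 21.8%, so by this measure celastrol replicates 1 and 3 stood apart and replicate 2 did not. The part of that difference in the members' values was not tested. The members' median log2 fold change was -0.42 without replicate 2, and 25 of the 38 were then called lower. In that fit the genes called in either direction over all genes tested also rose, from 2652 to 3810.

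**Figure D5:**
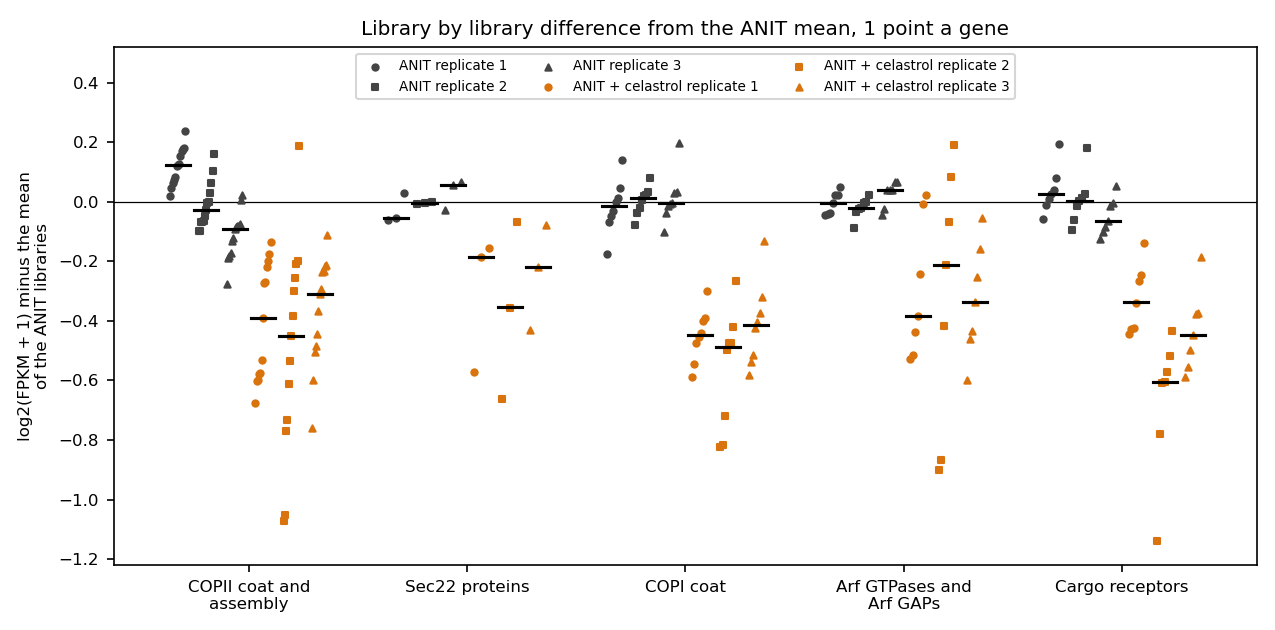
Difference of each library from the mean of the 3 ANIT libraries on the log2(FPKM + 1) scale, 1 point a gene, by role, with ANIT in grey, ANIT plus celastrol in orange and a black bar at the median of each library. The cargo receptor median is -0.61 in celastrol replicate 2, against -0.34 and -0.45 in replicates 1 and 3, while for Arf GTPases and Arf GAPs replicate 2 has the highest celastrol median, -0.21.

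The promoter letters can be set beside the calls. Of the 14 genes with the XBP1 core 6 were called lower, and of the 21 genes with a window but no match 13 were. For the UPRE letters the counts were 4 of 6 with a match and 15 of 29 without, and no test of these differences was made. Over all tested genes 20.6% were called lower, and calls of the genes with these letters outside the list were not counted. Lman1, Tmed2 and Arcn1 had no window and were called lower. Among the genes of the factors known to control secretory capacity, Xbp1 measured 143.35, 121.57 and 135.37 FPKM in the ANIT libraries, against 174.34, 133.04 and 142.9 FPKM after celastrol and did not pass (log2 fold change 0.16, adjusted p = 0.45 in limma). An FPKM value does not separate spliced from unspliced Xbp1 mRNA. Of the 7 tested genes of such factors 2 were called lower and none higher (20.6% and 4.41% of all tested genes, and none of the 7 after median-ratio scaling). They were Creb3 (log2 fold change -0.41, adjusted p = 0.026 in limma) and Atf6b (log2 fold change -0.44, adjusted p = 0.027 in limma). The Creb3 call was lost in 5 and the Atf6b call in 4 of the 6 fits without 1 library (adjusted p up to 0.087 and 0.086 in limma). Creb3l3, the liver-enriched member of its family, had one of -0.55 (adjusted p = 0.075 in limma), Atf6 one of -0.39 (adjusted p = 0.052 in limma), Creb3l2 one of -0.29 (adjusted p = 0.17 in limma) and the Xbp1-splicing kinase Ern1 one of 0.03 (adjusted p = 0.88 in limma). Creb3l1 stayed below 1 FPKM, at 0.2 to 0.38 FPKM.

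Other genes of ER to Golgi transport (tethers, SNAREs, further p24 proteins, retrieval receptors and Rab GTPases) were listed for 57 of 58 symbols, and 56 were tested. Of these 22 were called lower and 1 higher, with a median log2 fold change of -0.31. Over all tested genes 20.6% were called lower and 4.41% higher, with a median of -0.17. After median-ratio scaling 4 of the 56 were lower and 1 higher, where 11.0% of all genes were called lower and 7.57% higher. Leaving out ANIT replicate 1, 2 or 3 took the lower calls to 8, 7 or 10. Leaving out celastrol replicate 1, 2 or 3 took them to 6, 27 or 11. Calls over all genes changed in the same fits, as given above. Mia2, which helps load bulky cargo and lipoproteins into COPII carriers, measured 36.53, 38.01 and 39.51 FPKM in the ANIT libraries, against 18.32, 21.53 and 18.8 FPKM after celastrol (log2 fold change -0.93, SE 0.11, adjusted p = 0.0018 in limma). It shares its locus with Ctage5, listed separately, so the reads of each are uncertain. Ctage5 overlapped between groups and did not pass (log2 fold change -0.24, adjusted p = 0.22 in limma). Tmed5, another p24 gene, had a log2 fold change of -0.51 (adjusted p = 0.0088 in limma), the SNARE gene Bet1 one of -0.54 (adjusted p = 0.0091 in limma), and Scfd1, which encodes the Sec1 family protein that acts with syntaxin 5, one of -0.53 (adjusted p = 0.0091 in limma). The gene called higher was Gorasp1, which encodes the Golgi stacking protein GRASP65, with 10.17, 7.72 and 6.73 FPKM in the ANIT libraries, against 12.19, 11.22 and 11.38 FPKM after celastrol (log2 fold change 0.47, adjusted p = 0.047 in limma). That call was lost in 5 of the 6 fits without 1 library.

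Transcripts of known cargo of these receptors were also measured. Apob, the structural protein of very low density lipoprotein, overlapped between groups (log2 fold change -0.18, 95% interval -0.51 to 0.16, adjusted p = 0.39 in limma). F5, which encodes coagulation factor V, did as well (log2 fold change -0.10, 95% interval -0.40 to 0.20, adjusted p = 0.59 in limma). F8 lay below the filter, at 0.53 to 0.76 FPKM with ANIT and 0.75 to 0.89 FPKM with celastrol.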

How the data were processed

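Per the labels' protocols, RNA was extracted with Trizol from frozen mouse liver, in 3 ANIT and 3 ANIT plus celastrol samples, grouped by title. HISAT2, featureCounts and build mm10 are named in the submitters' processing notes without versions; for the FPKM formula, gene lengths and strandedness, the details were not given in the sources used here. The deposited values are FPKM, 1 table per library, per the file headers. A symbol not listed was set to 0, and 2 duplicated date-like names were left out. The filter kept genes reaching 1 FPKM in 3 or more libraries. Their log2(FPKM + 1) values were fitted in limma 3.58.1 (R 4.3.3, trend, robust variance, group as the only term), and p was adjusted over all genes by Benjamini-Hochberg. The fit was tested on simulated data. The added pseudocount makes fold changes of low genes too small. Read depth was estimated from the steps between values of 0.1 to 1 FPKM, and no counts were rebuilt. Without strand information, 8 members whose exons overlap an opposite-strand listed gene (Sec24c, Preb, Copa, Copg2, Arf4, Arf5, Arfgap2 and Surf4) are less certain, as are genes with processed pseudogenes. Alternatives were a pseudocount of 0.1, no filter, median-ratio scaling, TPM, the replicate block and leaving out each library. The text gives in full the 3 genes with the smallest p of each role group and any member higher with celastrol, and every other member by value. Of other transport genes it names the 4 smallest p, Ctage5 at the Mia2 locus and any called higher, and not those that were higher without passing. Paralog shares and library-by-library values were added to the text after being seen. Members and lists were chosen with earlier results of these data known. One cargo gene is not reported here.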

Additional observations from a re-analysis of the deposited data

How the results depend on the processing

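No member was called higher under any alternative run. The 2652 genes called in all were 4189 when rescaled to TPM and 1117 to 3810 with 1 library left out. The 22 members called lower became 1 after median-ratio scaling and 5 to 25 with 1 library left out, and were 16 without the filter and 29 with TPM. Their median log2 fold change of -0.457 became -0.279 after median-ratio scaling and -0.587 with TPM. The 22 other transport genes called lower became 12 without the filter, 4 after median-ratio scaling and 6 to 27 with 1 library left out, and the 1 called higher became 0 without the filter and 0 with TPM, and 0 to 1 with 1 library left out. Signs reversed for Sar1b (0.08), Arf5 (0.014) and Arfgap1 (0.088) after median-ratio scaling and for Arfgap2 with TPM (-0.107), and Arfgap2 ran from -0.015 to 0.054 with 1 library left out, below 0 without ANIT replicate 3 (-0.005) or celastrol replicate 2; none of these passed. With the replicate block, 18 members and 16 other transport genes were called lower, and 2585 genes were called in all. Same-numbered libraries correlated at 0.149, 0.231 and -0.0917 over 10593 genes, so the numbers were not taken to pair samples. TPM and median-ratio scaling change the level each library is set to; other causes were not tested. FPKM tables carry no counts, so counting error could not be given.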
